A study of Mus musculus with 16 samples.

Results

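The regions described here were covered by an ATAC-seq peak at day 2 (D2) of chemical reprogramming of mouse fibroblasts and in no other list of the series. ATAC-seq uses the Tn5 transposase to insert adapters into accessible DNA. A peak is a stretch where a peak caller found more fragments than in its surroundings. Peaks of the 8 deposited lists were merged where they overlapped by at least 1 bp, on chromosomes 1 to 19, X and Y, which gave 165616 regions. Of these, 20432 were covered at D2 and not at D0, D4, D6, D8, D10, D12 or in iPSC, which is 12.3% of all regions and 24.7% of the 82580 regions covered at D2. The other 62148 D2 regions were covered in at least 1 more list. The day-2-only regions were therefore chosen by measured values, namely the presence of a peak at D2 and its absence elsewhere.

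The series follows mouse embryonic fibroblasts (MEF) through 12 days in a chemical reprogramming medium to induced pluripotent stem cells (iPSC). It holds 16 samples, 2 per stage, at 8 stages. D0 is MEF from E13.5 embryos of strain 129XOG2, grown in serum medium. D2 to D12 are cells in the reprogramming medium, which was changed every 2 days and daily from day 4 to day 8; the labels do not name its compounds. The iPSC were grown on feeder cells with LIF, CHIR99021 and PD0325901, and the labels do not say whether feeder cells were kept out of those libraries. OG2 mice carry a fluorescent reporter driven by Pou5f1 sequences, as background. The MEF were of passages 1 to 3. Each library was made from a pool of cells, so a region open in few cells and a region weakly open in many cells cannot be told apart.

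The authors deposited 1 peak list per stage. There is no replicate spread, so no test between stages was made, every value below is a description of single lists, and shares carry 95% intervals (exact Clopper-Pearson) for counting error alone. The D2 list was the longest, with 83022 peaks against 31915 to 57924 in the other lists. The number of reads was not given. Its stand-in is the background pileup, the lowest local number of stacked fragments recovered from the caller's own values, which was 3.08 at D2, 2.12 at D6, 1.96 at D0, 1.90 in iPSC, 1.23 at D4, 0.968 at D10, 0.682 at D8 and 0.248 at D12. D2 was thus the deepest list by this measure, and D12 the shallowest. As a check of the labels, regions assigned to 26 fibroblast and mesenchyme genes were covered 175 times at D0, 299 at D2 and 75 in iPSC, and those of 24 pluripotency network genes 42, 89 and 156 times. Over all genes and regions, these lists covered 48759, 82580 and 49050 merged regions, so the higher counts at D2 come with a longer list. "Open at day 2 only" describes these lists and not the cells, because a region can be open in a stage and stay under the threshold of a shallow list.

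Open regions away from gene starts are often enhancers, short DNA elements where transcription factors bind and act on genes at a distance. In fibroblasts, many enhancers hold a site for AP-1, a dimer of FOS and JUN family proteins that responds to growth factors, serum and stress. Promoters of widely used genes instead tend to be rich in CpG and open in most cell types. Early in reprogramming, enhancers of the starting cell lose access and new ones gain it, and transiently open regions are known from other reprogramming systems.

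The sequences shown here are of 8 promoters, chosen because AP-1 was, of 6 motifs measured for it, the motif with the largest share of its promoter matches near the summits of the day-2-only regions. Each lies upstream of a protein-coding gene whose promoter window was overlapped by a day-2-only region, and each holds an AP-1 match within 50 bp of the D2 summit. They are the 8 such genes with the highest fold enrichment at D2, from RefSeq sequences of GRCm38.p6 (its chromosomes are those of mm10), written 5′ to 3′ in the direction of the gene. Capitals mark TGACTCA or its reverse complement TGAGTCA.
Spata6 (chr4:111777487-111777587, plus strand): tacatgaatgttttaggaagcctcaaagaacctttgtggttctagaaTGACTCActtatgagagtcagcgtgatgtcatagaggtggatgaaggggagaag
Olfr550 (chr7:102578364-102578464, plus strand): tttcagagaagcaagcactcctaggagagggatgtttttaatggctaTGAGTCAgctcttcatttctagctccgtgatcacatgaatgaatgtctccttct
Mmp3 (chr9:7445729-7445821, plus strand): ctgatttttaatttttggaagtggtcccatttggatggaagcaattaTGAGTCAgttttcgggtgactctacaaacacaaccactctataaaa
Glyat (chr19:12633209-12633307, plus strand): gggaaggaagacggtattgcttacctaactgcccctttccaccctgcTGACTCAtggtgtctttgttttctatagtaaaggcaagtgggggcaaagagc
Mylk (chr16:34784839-34784939, plus strand): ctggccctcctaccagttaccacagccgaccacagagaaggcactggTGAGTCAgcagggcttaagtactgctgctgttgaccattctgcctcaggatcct
Cdyl (chr13:35659687-35659787, plus strand): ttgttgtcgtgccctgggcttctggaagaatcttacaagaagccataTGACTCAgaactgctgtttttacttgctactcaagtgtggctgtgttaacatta
Bpifc (chr10:86011861-86011958, minus strand): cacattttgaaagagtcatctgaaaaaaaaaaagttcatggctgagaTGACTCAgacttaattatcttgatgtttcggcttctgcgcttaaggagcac
Asah2 (chr19:32103161-32103261, minus strand): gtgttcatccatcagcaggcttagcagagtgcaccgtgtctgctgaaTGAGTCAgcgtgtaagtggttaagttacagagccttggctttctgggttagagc

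The strongest of these promoter peaks was that of Spata6, a gene needed to build the connecting piece of sperm, with a D2 fold enrichment of 10.3 and a summit pileup of 46. Its match lay 4 bp from the summit. Olfr550, an odorant receptor gene, followed with a fold of 8.22, a pileup of 35 and a match 14 bp from the summit. Mmp3, which encodes the secreted matrix protease stromelysin and is a textbook AP-1 target, had a fold of 7.88 and a pileup of 33, with the match 23 bp from the summit.

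In Glyat, a glycine conjugation enzyme gene, the fold was 7.35 and the match lay 12 bp from the summit. Mylk, which encodes myosin light chain kinase, had a fold of 6.01 and a match 1 bp from the summit. The values were 5.88 and 2 bp for Cdyl, a gene of a chromodomain corepressor, 5.39 and 12 bp for Bpifc, and 5.27 and 12 bp for Asah2, the neutral ceramidase gene. In all 8 the match sat 1 to 23 bp from the point of highest signal, but a match within 50 bp was part of the choice. Promoters with similar folds and more distant matches were left out by it, among them Ttc41 (fold 7.38, 237 bp) and Itgax (7.11, 188 bp).

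At D2 itself, the day-2-only regions were weak beside the other D2 regions. Fold enrichment compares the number of fragments at the summit with the local background, each raised by 1, and it was taken from the best-scored D2 peak of each region. Its median was 4.17 in day-2-only regions (quartiles 3.43 and 5.39, range 1.74 to 16.4) and 6.32 in the other D2 regions (quartiles 4.66 and 8.21). The median summit pileup was 20 against 39 fragments, the median peak width 452 against 820 bp, and the median −log10 q-value 6.48 against 18.6. The distributions overlapped: 2872 day-2-only regions, 14.1%, had a fold above the median of the other D2 regions. Since these regions were chosen on the D2 list and the lists around it, these values describe the choice and carry no test.

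The gap was mostly to regions that recurred. D2 regions covered in 1 other list had a median fold of 5.13 and a pileup of 26. The median fold was 6.20 with 2 other lists, 6.81 with 3, 6.22 with 4, 6.34 with 5, 6.72 with 6 and 8.22 with all 7. The order was not strictly rising, since regions covered in 3 other lists stood above those covered in 4, 5 or 6. The day-2-only regions had the lowest median on both scales. Their local background was also low: it was raised above the list's floor in 52.6% of them and in 80.3% of the other D2 regions.

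**Figure D1:**
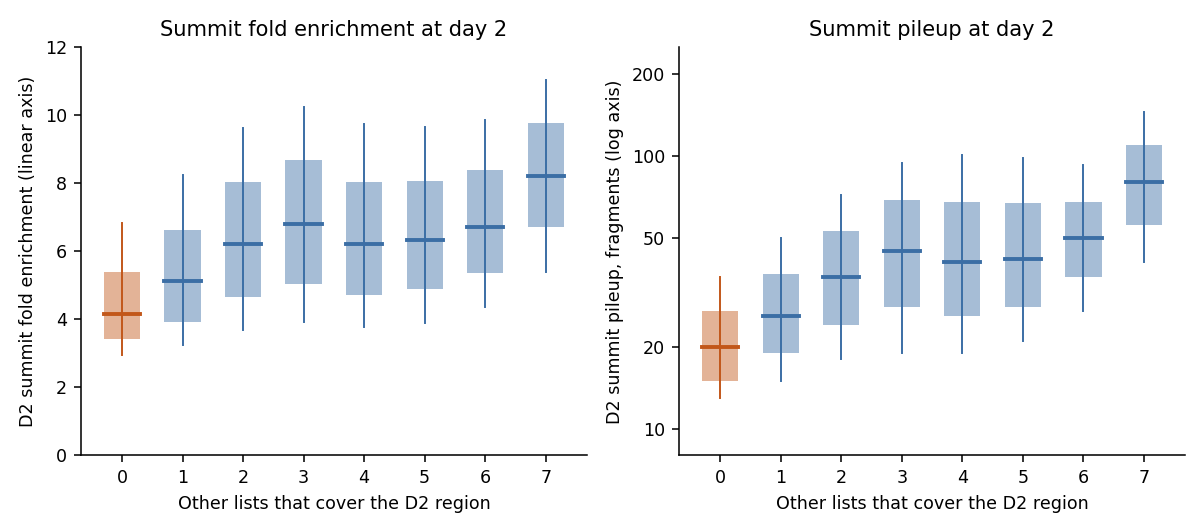
D2 summit fold enrichment (left, linear axis) and D2 summit pileup in fragments (right, log axis) of D2 regions by the number of other lists that cover them; 0 is the day-2-only class (orange). Thick lines are medians, boxes the quartiles and thin lines the 10th to 90th percentiles over regions, not replicate error; the medians are 4.17 and 20 at 0 and 8.22 and 80 at 7 other lists.

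Read the other way, the share of D2 regions that were covered at D2 alone fell with their pileup. Of the D2 regions with a summit pileup of 10 to 14 fragments, 63.8% (95% interval 62.6 to 64.9) were covered at D2 alone, 4467 of 7007. The share was 47.8% at 15 to 19, 33.1% at 20 to 29, 19.2% at 30 to 39, 11.2% at 40 to 49, 4.32% at 50 to 74 and 0.916% at 75 to 99 fragments. At 100 or more it was 0.0387% (0.00469 to 0.140), 2 of 5168 regions. By fold enrichment, the share fell from 56.0% in the lowest 10% of D2 regions to 3.21% in the highest 10%. There were still 265 day-2-only regions in that highest class, whose lowest fold was 9.47.

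The depth of the other lists moves with their coverage, so the D2 pileups were scaled to each of them. Pileup and local background were multiplied by the ratio of background pileups, and the resulting p-value was compared with the weakest p-value of the other list. At the D0 depth 18962 day-2-only regions (92.8%) were still past that limit, at the D6 depth 19657 (96.2%), at the iPSC depth 17956 (87.9%) and at the D4 depth 15035 (73.6%). These are the 4 deepest of the other lists, and the 15035 passed at all 4 depths. In contrast, 10715 (52.4%) passed at the D10 depth, 7285 (35.7%) at the D8 depth and 1187 (5.81%) at the D12 depth.

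For the other D2 regions the shares were 99.0% at D0, 94.5% at D4, 99.5% at D6 and 41.0% at D12. At the D8 and D12 depths most of the day-2-only regions fell under the limit, so whether they were open at those stages could not be read from these lists. At the D0, D4, D6 and iPSC depths most of them passed the limit, but passing it did not equal being listed. Of all D2 regions past the limit, day-2-only regions included, many were not covered in the list concerned. The shares not covered were 54.9% at D0, 53.3% at D4, 42.1% at D6 and 73.8% in iPSC. Day-2-only regions are absent from these lists by definition, which raises the shares. They were 18962 of the 44239 not covered at D0, 15035 of 39342 at D4, 19657 of 34275 at D6 and 17956 of 58313 in iPSC. The remainder were D2 regions covered in some other list. This scaling leaves sampling noise and the share of fragments in peaks out, and a part of either in the absence of these regions was not tested.

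**Figure D2:**
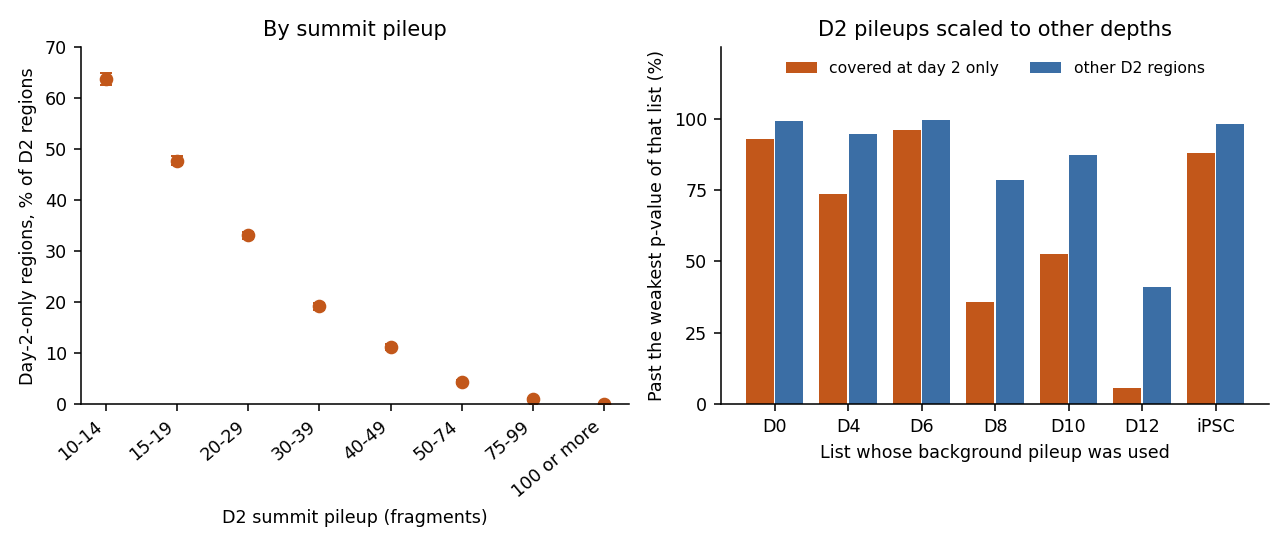
Left, the share of D2 regions that were covered at D2 alone by D2 summit pileup in fragments, with exact 95% intervals for counting error; it falls from 63.8% at 10 to 14 to 0.0387% at 100 or more. Right, the share of day-2-only regions (orange) and other D2 regions (blue) whose D2 pileup, scaled to the background pileup of another list, passes the weakest p-value of that list; the day-2-only bars run from 5.81% at D12 to 96.2% at D6.

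Each list had regions of its own, and in each they were its weaker ones. The median fold of a list's own regions over that of its remaining regions was 0.662 at D2, 0.754 at D0, 0.737 at D4, 0.697 at D6, 0.636 at D8, 0.685 at D10, 0.621 at D12 and 0.839 in iPSC. The D2 ratio lay within the range of the other 7. The share of a list's regions covered in it alone was 24.7% at D2, 18.8% at D0 and 8.94% at D6, and reached 38.3% at D12 and 43.9% in iPSC. By number, only iPSC had more such regions, 21543.

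D2 regions covered in exactly 1 other list show which list came closest to D2. That list was D6 for 7068 regions, D0 for 3844, D4 for 3504, iPSC for 1125, D10 for 459, D8 for 416 and D12 for 139. The order broadly followed depth, except that iPSC, about as deep as D0, shared fewer. The regions shared with D6 had a median D2 fold of 5.62, those with D4 5.33, those with D0 4.77 and those with iPSC 3.95. Regions shared with D6 or D4 alone thus stood above the day-2-only median of 4.17, and those shared with iPSC alone did not.

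The class also depended on the overlap that counts as shared. With D2 regions counted as day-2-only while other lists covered under 50% of the D2 peak, there were 29677, which is 35.9% of D2 regions. The nearest peak of any other list lay a median of 4136.5 bp from a day-2-only region, and 1611 regions (7.88%) had one within 500 bp. The 180 day-2-only regions within 50 bp of another list's peak had a median fold of 3.68 and a median pileup of 18.5. The 314 D2 peaks that other lists covered by only 1 to 50 bp, just outside the class, had 3.65 and 16. At its edge the class was therefore not set apart by its D2 signal.

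Day-2-only regions lay away from gene ends. Near a gene end here means at most 1 kb from the start or the stop of a protein-coding gene. This held for 954 day-2-only regions, 4.67% (4.38 to 4.97), and for 21.2% (20.9 to 21.5) of the other D2 regions. Another 10186 (49.9%) lay elsewhere in a gene and 9292 (45.5%) between genes, against 39.3% and 39.5% of the other D2 regions.

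Distance from gene ends was shared with the regions found in only 1 of the other lists. Their share near gene ends was 4.53% at D0, 3.14% at D4, 4.66% at D6, 4.46% at D8, 4.91% at D10, 2.44% at D12 and 5.25% in iPSC. D2 regions covered in iPSC as the sole other list were near gene ends more often, 17.2%, against 3.37% with D6 and 2.91% with D4. With D10, D8 and D12 the shares were 10.9%, 9.62% and 9.35%, and with D0 5.10%, so a raised share was not particular to iPSC.

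**Figure D3:**
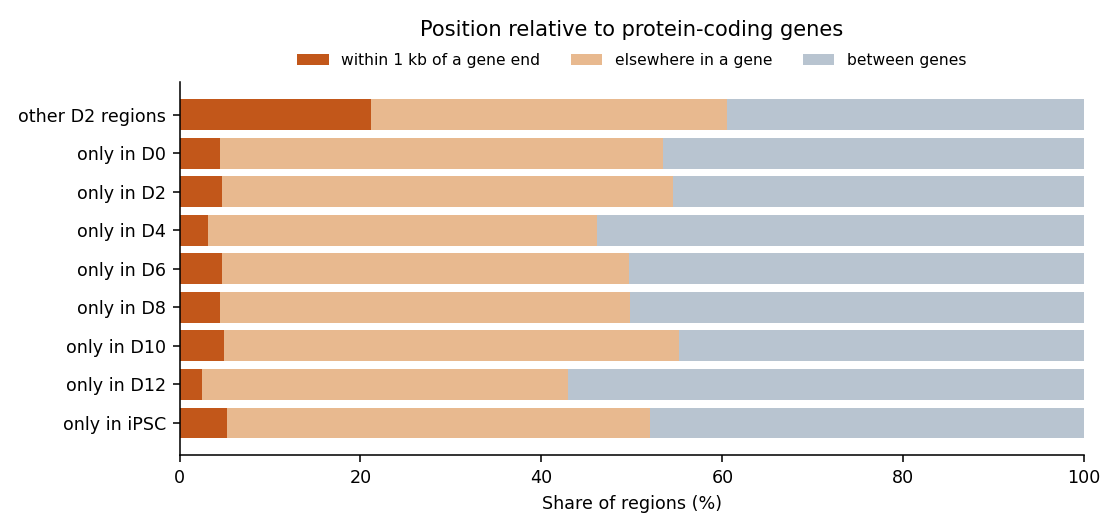
Stacked bars give the share of regions (%) within 1 kb of a protein-coding gene end, elsewhere in a gene or between genes, for D2 regions shared with other lists and for the regions covered in 1 list alone. All 8 classes of 1 list have between 2.44% and 5.25% near gene ends, against 21.2% of the other D2 regions.

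The regions were spread over the genome with some local runs. The nearest other D2 region was a median of 9227 bp away, and 52.8% had one within 10 kb. These neighbours were covered at D0 in 55.6% of cases, at D6 in 73.2% and in iPSC in 30.3%, while over all other D2 regions the shares were 58.7%, 76.1% and 33.8%. Another day-2-only region lay within 10 kb of 5266 of them (25.8%). The longest runs, with gaps of at most 10 kb, held 7 regions. A run at chr16:10709821-10737934 lay in Clec16a, a gene of autophagy and mitophagy, with D2 folds of 2.41 to 5.58. The other, at chr8:127074061-127108297, lay in Pard3, a scaffold of cell polarity, with folds of 2.82 to 7.13. In both runs no other D2 region lay in between. A run of 6 at chr10:117684119-117703329 spanned Cpm and Mdm2, which encodes the ubiquitin ligase of p53, with folds of only 2.52 to 3.14.

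By chromosome, the share of D2 regions that were day-2-only ranged from 22.7% (chromosome 7) to 26.1% (chromosome 13) on the autosomes. On the X chromosome it was 28.8% (26.6 to 31.0), 475 of 1650 regions. Of 12 D2 regions on the Y chromosome 0 were covered at D2 alone (interval 0 to 26.5).

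The 10 day-2-only regions with the highest fold lay mostly outside genes. The highest fold, 16.4, belonged to chr11:66789854-66790773, with a pileup of 101, 121131 bp from the nearest protein-coding gene, Pirt. The next were chrX:139051964-139053365 with a fold of 14.8 and a pileup of 61, 25883 bp from Serpina7, and chr13:79941804-79942723 with 14.4 and 59, 940660 bp from Arrdc3.

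At chr6:4224731-4225472 the fold was 13.4 and at chr6:4291217-4291829 it was 13.2, both nearest to Bet1, at 137732 and 204218 bp. Of the 10 with the highest fold, 1 lay inside a gene, chr1:179985835-179986679 in Cdc42bpa, a kinase gene of the cytoskeleton, with a fold of 13.8. The 10 ran down to a fold of 12.9 and all had pileups of 52 to 101, far above the class median of 20. Among those with the highest scores, which weigh pileup more, regions in Pcsk7, a proprotein convertase gene (fold 10.8, pileup 90), Enpp2, the autotaxin gene (11.5, 80), and Adamts8, a secreted metalloprotease gene (11.1, 79), lay inside genes.

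Near gene ends the highest folds were lower, but they are the extremes of 954 regions, against 20432 in the whole class. Gxylt2, a xylosyltransferase gene acting on Notch, had a fold of 11.5 and a pileup of 47. Ugt1a7c, a glucuronidation enzyme gene, followed with 10.8 and 43, Sh3rf3 with 10.3 and 47, the copper transporter gene Slc31a2 with 9.61 and 57, C1d with 9.25 and 48, and the autophagy receptor gene Optn with 9.14 and 43. Tex11, a gene of meiosis, had 9.07 and 36, and Cyp8b1, a bile acid enzyme gene, 8.70 and 54. A region inside Tdrd9 and near an end of Rd3l, with 8.74 and 60, ranked between them. Cyp8b1 acts mainly in liver and Tex11 in testis, but the genes named here have mixed roles. No tissue was assigned from them.

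At promoters the class could be read for sequence. A promoter window here is 250 bases before to 50 after a RefSeq start, and 32851 windows were available, some of them overlapping within a gene. Day-2-only regions overlapped 304 windows of 283 genes, 168 windows of protein-coding and 136 of long non-coding genes. The AP-1 motif TGACTCA, searched on both strands, was in 42 of the 304, 13.8% (10.1 to 18.2). It was in 4.17% (3.86 to 4.51) of the 14613 windows under other D2 regions, in 6.33% of the 2037 under regions not covered at D2, in 5.84% of the 15897 under no region, and in 5.20% of all windows. The looser motif TGANTCA, which takes in every AP-1 match, was in 17.4% of the day-2-only windows and 7.81% of all.

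The share with AP-1 fell with the number of other lists that covered the D2 region. It was 12.6% with 1 other list, 9.48% with 2, 10.8% with 3, 5.20% with 4, 5.84% with 5, 3.38% with 6 and 2.78% with all 7. The intervals of 3 (8.57 to 13.3) and 4 other lists (3.75 to 6.98) did not overlap, nor did those of 5 and 6. The intervals of 0 to 3 other lists overlapped one another. The median CpG ratio, the observed over expected number of CpG, rose along the same order, from 0.348 to 0.808.

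Nor was the AP-1 share particular to D2 among the lists. Of windows under regions covered at D0 alone 17.0% (10.5 to 25.2, 19 of 112) held the motif, and of those covered at D6 alone 19.7% (11.5 to 30.5, 15 of 76). The share was 4.84% in iPSC, 8.93% at D8, 6.71% at D10 and 2.86% at D12, and at D4 it was 0 of 33 (interval 0 to 10.6). The intervals of D0, D2 and D6 thus lay above those of iPSC (3.29 to 6.84) and of D12 (0.348 to 9.94), without overlap.

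The difference depended on CpG content. Among windows with a CpG ratio under 0.3, 23.6% (16.5 to 32.0) of the day-2-only set held AP-1, 30 of 127. The share was 12.9% (11.1 to 14.9) under other D2 regions, 9.70% under regions not covered at D2 and 6.26% under none. Between 0.3 and 0.6 it was 11.5% (5.86 to 19.6) against 6.45%, with overlapping intervals. Above 0.6 the order was the other way, with 1 of 81 day-2-only windows, 1.23% (0.0313 to 6.69), against 2.46% under other D2 regions and 3.02% under none.

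The matches also lay near the summits. Of 45 AP-1 matches in the day-2-only windows, 23 were within 50 bp of the D2 summit, 51.1% (35.8 to 66.3), at a median distance of 50 bp. Only 16.1% of the bases of those windows lay as close. For other D2 regions 32.3% (28.7 to 36.1) of 641 matches were within 50 bp, against 17.98% of bases. Because windows of a gene can overlap, a match can be counted more than once in either set, and the intervals do not allow for it. Matches of the GC box GGGCGG (12.7% of 245) and of the TEAD motif GGAATG (12.7% of 55) in day-2-only windows were no more frequent near the summit than the bases were. For the RUNX motif TGTGGT the share was 22.2% (13.3 to 33.6) of 72. The printed promoters of Spata6, Mylk and Cdyl are the closest cases, at 4, 1 and 2 bp.

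**Figure D4:**
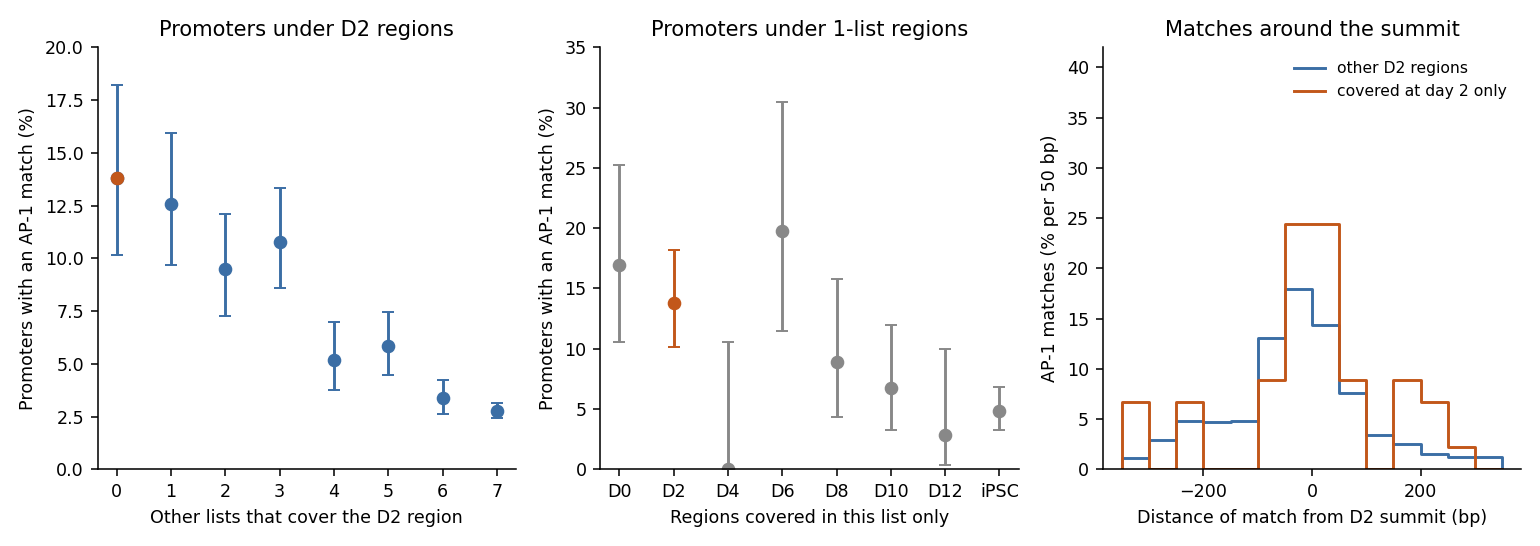
Left and middle, the share of promoter windows (%) with an AP-1 match by the number of other lists that cover the D2 region, and under regions covered in 1 list alone, with exact 95% intervals; D2 (orange) is at 13.8%. Right, AP-1 matches (% per 50 bp) by distance in bp from the D2 summit in the direction of the gene, for 45 matches under day-2-only regions (1 beyond the axis) and 641 under other D2 regions (119 beyond).

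Other motifs differed in share too, as did base composition. The GC box was in 34.2% of day-2-only windows and 63.8% of those under other D2 regions, the ETS motif CCGGAAG in 4.28% and 16.5%, the E-box CACGTG in 3.95% and 9.92%, and CCAAT in 29.3% and 37.1%. The TEAD motif was in 16.4% and 12.2%, the RUNX motif in 20.1% and 12.03%, and the GATA motif AGATAA in 12.2% and 5.63%. In all windows these last shares were 14.7%, 16.8% and 11.2%, so none of the 3 stood clear of that level by more than its interval in the day-2-only set. The cyclic AMP response element TGACGTCA was in 8 windows, 2.63% (1.14 to 5.12), against 3.13% under other D2 regions. The OCT motif ATGCAAAT was in 3, 0.987%, and 1.74% of all windows. Every motif was searched on both strands. Mean GC content was 54.8% in the day-2-only windows, 61.2% under other D2 regions and 53.8% in all.

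Of 1005 microRNA hairpins in the RefSeq table, 6 were overlapped by a day-2-only region and 118 by another D2 region. The 6 were Mir34a, Mir761, Mir1895, Mir6386, Mir6407 and Mir547. Mir34a, a p53 target whose microRNA restrains the cell cycle and reprogramming, is shown for that role, with the seed (bases 2 to 8) in capitals. The region, chr4:150068175-150068603, had a D2 fold of 4.87 and a pileup of 22, near the middle of the class.
mmu-miR-34a-5p: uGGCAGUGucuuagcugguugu
mmu-miR-34a-3p: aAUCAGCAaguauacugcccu

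Regions were assigned to the nearest protein-coding gene within 100 kb. This gave 16842 day-2-only regions a gene, which was 12% of all assigned regions and 23.6% of the assigned D2 regions, and left 3590 with none. They fell to 7454 genes, 749 of which had at least 5. These shares, and not 0, are the level against which a gene or list is read.

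The genes with the most day-2-only regions were long. Pde4d, a phosphodiesterase that breaks down cyclic AMP, had 30 among 82 D2 regions, with folds up to 8.71. Pard3 had 27 of 56, Nav2, a microtubule-binding guidance protein gene, 26 of 60, and Macrod2, an ADP-ribose hydrolase gene, 26 of 66. Dlgap2, a synaptic scaffold gene, had 20 of 37 with a highest fold of 10.2. Hdac9, a histone deacetylase gene, and Ptprg, a receptor phosphatase gene, had 19 each, of 45 and 55. The remaining 5 of the 12 leading genes were Auts2 (18 of 71), Cadps (18 of 38), Cdh13 (17 of 43), Nrxn3 (17 of 37) and Sema5a (17 of 42). Their median length was 814 kb, against 23.9 kb for genes with a D2 region.

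Length was tied to the share as well as to the number. Day-2-only regions were 17.98% of the D2 regions assigned to genes under 10 kb, 20.3% from 10 to 50 kb, 24.9% from 50 to 200 kb, 28.0% from 200 to 500 kb and 31.2% (29.9 to 32.5) in genes of at least 500 kb. Away from gene ends the gradient was smaller, from 26.1% under 10 kb to 32.2% from 500 kb. Among the 12 leading genes the share ran from 25.4% for Auts2 and 34.5% for Ptprg to 54.1% for Dlgap2. These genes were chosen for their number of such regions, so a high share is in part built into the choice.

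The highest shares among genes with at least 10 D2 regions belonged to Rps6kc1, a gene of the ribosomal S6 kinase family (13 of 18, 72.2%), Frmpd4 (10 of 14) and Dlgap4 (7 of 10), both synaptic scaffold genes, 4933412E24Rik and Ankfn1 (9 of 13 each), and Gpc3, a glypican of the cell surface (9 of 13). D0 covered 2 regions of Rps6kc1 and iPSC 3. These genes were picked as extremes of many, so their shares describe them and no more.

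Gene lists were read as the share of their assigned D2 regions that were day-2-only, beside 23.6% over all genes. Cyclic AMP response genes had the highest share of any list with over 30 D2 regions, 104 of 319, 32.6% (27.5 to 38.0), and 14 of the 18 genes had at least 1. Pde4d gave 30 of them and Ppargc1a, a coactivator gene induced by cyclic AMP in several tissues, 15 of 37 with a highest fold of 8.78. Without Pde4d the list was at 31.2% (25.4 to 37.5), 74 of 237. Away from gene ends it was at 33.9% (28.5 to 39.6) against 27.8% over all genes. Pde4d (1302 kb), Ppargc1a (662 kb) and Pde4b (520 kb, 11 of 35) are long genes, and all genes of at least 500 kb were at 31.2%. Creb5 (413 kb) had 12 of 33, and all genes of 200 to 500 kb were at 28.0%. Most genes of the list are shorter than 500 kb, but the share counts regions, and long genes hold many of them. A part of gene length in its share was not tested.

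Lists of other cell identities lay on both sides of the level of all genes. Endoderm genes were at 18.9% (12.5 to 26.8) and epithelial genes had the lowest share of the 24 lists, 14.1% (6.97 to 24.4), 10 of 71, and 13.7% (5.70 to 26.3) away from gene ends. Pluripotency network genes had 28 of 89, 31.5% (22.0 to 42.2). Tbx3, a factor that sustains naive pluripotency, had 6 of 13, and the nuclear receptor gene Nr5a2 had 5 of 9, with none of its regions covered at D0 and 17 in iPSC. Neural genes were at 29.6% (19.99 to 40.8), with Map2, a dendritic microtubule protein gene, at 5 of 12. Endothelial genes were at 29.5% (20.6 to 39.7), with 5 of 14 for the VEGF receptor gene Kdr. Blood and macrophage genes had 9 of 30, 4 of them at Ptprc, the CD45 gene, and germ cell genes 5 of 13. All these intervals over all D2 regions include 23.6%. Away from gene ends, the interval of the epithelial genes lay below the 27.8% of all genes.

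Fibroblast and mesenchyme genes stood close to all genes, with 79 of 299 regions, 26.4% (21.5 to 31.8), in 23 of 26 genes. Cdh11, a mesenchymal cadherin gene, had 8 of 19 with folds up to 7.11, and Col6a3, a collagen VI gene, 6 of 17 with folds up to 8.04 and no region covered in iPSC. Signalling lists were also near the level. TGF-beta pathway genes had 24.9%, with 12 of 44 at Ltbp1, a latent TGF-beta binding protein gene, and 5 of 9 at Inhba, the activin A subunit gene. BMP and ID genes had 26.6%, with 10 of 23 at Bmp7, WNT response genes 25.9%, with 6 of 18 at Lef1, and retinoid pathway genes 26.5%, with 10 of 37 at the receptor gene Rarb.

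RUNX family genes had 28.4% (20.2 to 37.9), with 12 of 35 at Runx2, the bone and mesenchyme factor gene. Xenobiotic and oxidative stress genes had 27.1%, with 7 of 14 at the cystine transporter gene Slc7a11. Nuclear receptor and C/EBP genes had 24.5%, 11 of them at Rora, and cell cycle and p53 genes 27 of 108. No interval of these lists left out 23.6%.

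Of the remaining lists, 2 had intervals below 23.6%. Immediate early and MAPK feedback genes had 26 of 161, 16.1% (10.8 to 22.8), in 10 of 20 genes, with 7 of 17 at Spred1 and 4 of 16 at Spry2, both inhibitors of the ERK pathway. Hippo pathway and TEAD genes had 24 of 150, 16.0% (10.5 to 22.9), with 8 of 34 at Tead1. Away from gene ends the shares were 19.1% (12.9 to 26.7) and 17.2% (11.1 to 24.9), against 27.8% over all genes, with both intervals below it. Many immediate early and MAPK feedback genes are short, such as Ier5 (3.27 kb) and Dusp6 (4.26 kb), while the longest is Spred2 (99.6 kb). All genes under 10 kb were at 17.98%, and at 26.1% away from gene ends, both inside the intervals of this list. A part of gene length in its share was not tested.

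The intervals of the other lists with low shares included 23.6%. SRF and contractile genes had 16.3% (9.63 to 25.2), and 18.1% away from gene ends. Fibroblast cytokine and chemokine genes had 22 of 122 (11.7 to 26.0), with 6 of 13 at Cxcl12, and 20.2% away from gene ends. Housekeeping genes had 15.6% (6.49 to 29.5), and 21.4% away from gene ends. Unfolded protein and amino acid stress genes had 15.8% (6.02 to 31.3), but 28.6% away from gene ends, which is near the level of all genes there.

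The AP-1 factor genes themselves had 14 of 64, 21.9% (12.5 to 34.0), and 28.6% (16.6 to 43.3) away from gene ends. Jun held 5 of 13 with a highest fold of 6.42 and Fosl2 3 of 7 with a highest fold of 3.92. Both shares of the list differed from those of all genes by less than the counting error, and the list was above all genes in 3 of 8 settings.

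**Figure D5:**
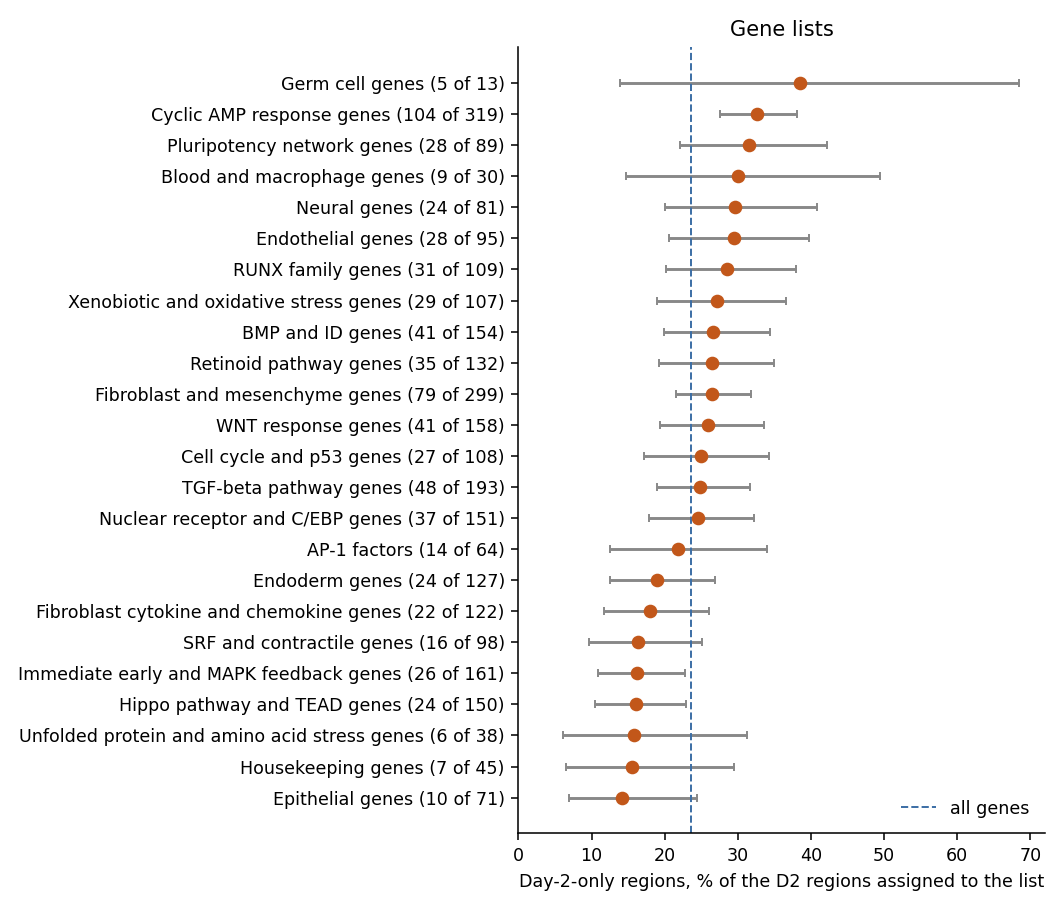
Share of the D2 regions assigned to each gene list that were covered at D2 alone (%), with exact 95% intervals for counting error and the counts in brackets; the dashed line is the 23.6% of all genes. The interval of the cyclic AMP list lies above the line and those of the immediate early and Hippo lists below it.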

How the data were processed

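ATAC-seq peak lists of 8 stages, 1 list from 2 samples each, were analysed as deposited. The submitters' processing notes name build mm10 and the tools MACS2 2.1.2, Bowtie2 2.2.5, fastp 0.20.1, deepTools 3.4.3 and SAMtools, in no stated role or order. The way both samples entered a list, and any shift of reads for Tn5, are not given in the sources used here. Each deposited list gives, per peak, its position, score, summit fold over background (a ratio), −log10 p-value, −log10 q-value and summit offset. The score and fold are the authors' values per peak and were used only within a list.

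Summit pileup and local background were recovered from the fold and −log10 p-value, within a tolerance of 0.001, for 99.9% or more of every list. Peaks were merged at an overlap of at least 1 bp. Peaks on unplaced and other sequences, 36 to 57 in a list, were not used. Each D2 region took the values of its best-scored D2 peak. The scripts were tested on simulated data. Gene positions and promoter sequences came from RefSeq tables of GRCm38.p6. The start site was planned as the gene end where strand is given, but only 17491 of 21883 protein-coding genes had a promoter sequence, so either end of a gene was used. Regions were assigned to the nearest protein-coding gene within 100 kb. No genome sequence was used here, so motifs were searched in promoter windows only.

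The day-2-only regions, the 24 gene lists (397 genes) and the motifs were chosen with earlier results of these data known. Named genes were the 12 with the most day-2-only regions, the 6 with the highest share (at least 10 D2 regions), up to 2 per list with at least 2, the 10 regions highest in fold, in score and in fold near a gene end, and the 3 longest runs. Genes of printed promoters, microRNAs and the sets by CpG ratio or gene length were added after values were seen. Alternatives were other score limits, list lengths, overlap rules, lists that define absence, depths, windows and assignment limits. Computation used Python 3.11.15, NumPy 2.4.6, pandas 2.3.3 and SciPy 1.17.1.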

Additional observations from a re-analysis of the deposited data

How the results depend on the processing

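The class is defined by thresholds, and its size followed them. The lists are 1 per stage, so no replicate could be left out. No paired analysis was possible because both samples of a stage share a list. Under 10 alternatives the day-2-only regions kept a lower median D2 fold than the other D2 regions. Their promoters kept a higher AP-1 share than those of the other D2 regions. In the order day-2-only regions, their share of D2 regions, their median fold, the median fold of other D2 regions, share near a gene end and share of promoters with AP-1, the values that moved were as follows. With the better-scored 50% of D2 peaks they were 3213, 7.75%, 7.13, 7.71, 2.71% and 36.7%. With the D2 list at the length of the D0 list they were 5284, 10.7%, 6.37, 7.34, 3.05% and 32.3%. The AP-1 shares of both settings rest on fewer promoter windows than the 304 of the main setting, and carry no interval here.

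With the better-scored 50% of every list there were 9735 regions, 23.5% of D2 regions, with a median fold of 7.11 against 7.90, and 3.71% of the other D2 promoters held AP-1. With D2 peaks counted as day-2-only while other lists covered under 50% of their length, the share was 35.9%, the folds 4.54 and 6.44, the share near gene ends 5.59% and AP-1 10.1%. At over 500 bp from every other peak they were 22.8%, 4.20, 6.22 and 3.98%. With absence in D0, D6 and iPSC only, the share was 31.5%, the folds 4.37 and 6.46, and AP-1 10.1%. With absence in D0 and D4 only, there were 33333 regions, 40.4%, folds of 4.41 and 6.69, 6.51% near gene ends and AP-1 at 9.31%.

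Scaled to the D6 depth, the share was 24.1% and the median fold 4.24. Scaled to the D4 depth, an alternative chosen after seeing the data, they were 20.4% and 4.71, the fold of other D2 regions 6.49 and the share near gene ends 3.88%. A gene end window of 2.5 kb gave 9.58%. A minimum pileup of 10 changed none of these values, since no D2 peak was lower. The AP-1 share was added after seeing the data.

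Of 168 list shares under 7 alternatives, 54 moved beyond their interval and 114 did not. In all 8 settings the share of the cyclic AMP list was above that of all genes, by 5.30 to 11.8 percentage points. Those of the Hippo and the immediate early lists were below it in all 8. Keeping to 1 side was not particular to these lists. The blood, germ cell, endothelial, fibroblast and mesenchyme, retinoid and WNT lists were also above all genes in all 8 settings. The SRF, housekeeping, fibroblast cytokine and unfolded protein lists were above in 0 of 8. Counts per named gene moved in 219 of 441 cases. The planned 100 bp summit window was not run, as it needs a genome sequence.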
